A study of Mus musculus with 16 samples.

Results

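The heat shock and DNAJ chaperone genes are described here in CD4+ T cells of mice infected with the nematode Nippostrongylus brasiliensis. The genes were chosen by symbol alone, as those that begin with Hsp or Dnaj, with pseudogenes marked -ps left out. This gave 76 of 32932 genes, of which 75 are listed in both runs of the study. No measured value entered this rule, although the set was chosen with earlier results of these data known. The rule did bring in 3 genes that carry such a symbol without being chaperones of these families: Hspg2, a basement membrane proteoglycan, Hspbap1, and Hspb11, a subunit of intraflagellar transport.

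All cells came from female 4get mice on a C57BL/6 background, in which eGFP reports transcription of the IL-4 gene, and all mice had received 500 infective larvae under the skin 10 days before. There was no uninfected group. In the first run, CD4+IL-4eGFP+ cells were sorted from the lung and the mesenteric lymph node (MLN) of 2 mice aged 13 weeks, with 1 library for each organ and mouse (lung 1, lung 2, MLN 1 and MLN 2, about 5000 sorted cells each). Perfused lungs still hold some cells of the vessels, and lung tissue was digested with enzymes while nodes were only mashed, so that organ and preparation cannot be told apart. In the second run, hashtag-labelled CD4+ T cells of the lung-draining mediastinal lymph node (medLN) and the MLN of 2 other mice aged 10 weeks were split by IL-4eGFP+ and IL-4eGFP- gates into 2 libraries, which gave 8 hashtag samples. Each gate is 1 library, so that gate and library cannot be told apart either.

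Chaperones of the HSP70 family bind unfolded stretches of protein and let go of them in a cycle of ATP hydrolysis. J proteins, which the Dnaj genes encode, hand clients to HSP70 and start that hydrolysis, while exchange factors of the HSP110 type reopen the cycle. HSP90 takes over clients that are close to folded, many of them kinases and receptors, and HSP60 with HSP10 folds proteins inside mitochondria. The endoplasmic reticulum (ER) and mitochondria have HSP70 proteins and J proteins of their own. Some genes of these families, Hspa1a and Hspa1b above all, are switched on by the factor HSF1 when proteins unfold, whereas others such as Hspa8 and Hsp90ab1 are made at all times.

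The sequences before the starts of the genes that differed most between organs show how alike the inducible pair is. Hspa1a (chromosome 17, 34969190 to 34972156, minus strand) and Hspa1b (chromosome 17, 34956436 to 34959238, minus strand) are protein-coding neighbours with 9951 bases between them in GRCm38. The 250 bases before each start, taken from RefSeq on GRCm38.p6, are the same at 247 positions (98.8%). Transcripts of the 2 genes are nearly identical as well, so that the split of reads between them in the authors' counting is uncertain. The windows read, 5′ to 3′ on the minus strand:
Hspa1a, chr17:34972157-34972406: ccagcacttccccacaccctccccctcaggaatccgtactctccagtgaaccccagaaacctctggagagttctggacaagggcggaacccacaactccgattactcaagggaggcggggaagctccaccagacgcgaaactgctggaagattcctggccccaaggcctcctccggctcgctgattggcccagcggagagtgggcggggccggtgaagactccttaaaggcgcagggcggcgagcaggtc
Hspa1b, chr17:34959239-34959488: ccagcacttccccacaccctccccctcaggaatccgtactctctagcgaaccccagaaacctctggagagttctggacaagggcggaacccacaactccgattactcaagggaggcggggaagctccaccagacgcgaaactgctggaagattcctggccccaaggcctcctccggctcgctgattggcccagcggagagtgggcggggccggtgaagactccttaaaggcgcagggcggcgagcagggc

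A strict form of the heat shock element was searched on both strands of the 250 bases before each start, as 3 units of GAA and TTC in alternation with 2 bases between them (GAANNTTCNNGAA or TTCNNGAANNTTC, each order being the reverse complement of the other, so that overlapping matches are read as 1 stretch). RefSeq windows were matched for 61 of the genes, with 78 starts. The element stood in the windows of 3 of them, Dnajb6, Hspd1 and Hspe1 (4.92%), against 139 of 27025 genes (0.514%) in the whole table. It was not in the windows of Hspa1a and Hspa1b printed above, which says only that these letters are not there. The stretches that hold it are shown with the units in capitals, since all 3 genes are described below:
Dnajb6, chr5:29735847-29735869, plus strand: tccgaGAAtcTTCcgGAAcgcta
Hspd1 and Hspe1, chr1:55088054-55088081, plus strand: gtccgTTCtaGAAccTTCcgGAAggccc
The element of Dnajb6 lay 46 to 34 bases before one of its starts. Hspd1 and Hspe1 stand head to head and share theirs, 89 to 72 bases before the start of Hspe1 and, on the other strand, 144 to 127 bases before that of Hspd1.

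After filtering, the first run held 416 to 2462 cells and 2798232 to 14512767 UMIs (unique molecular identifiers, 1 for each captured transcript) per library, and the second run 1992 to 2249 cells and 7546083 to 10636927 UMIs per hashtag sample. Chaperone genes of both families made up 0.994% and 0.966% of all UMIs in lung, 0.884% and 0.827% in MLN, 0.998% to 1.14% in IL-4eGFP+ samples and 0.782% to 0.975% in IL-4eGFP- samples. No UMI of 11 of the genes was found in the first run and of 6 in the second, among them Hspg2, Hspb2, Hspb3, Hspb8 and Dnajb8 in both, which only says that they were not detectable at this depth. Cell barcodes found in more than 1 library of a run belonged to 0 to 12 cells of a first-run library and 24 to 36 cells of a second-run sample. Without these cells the counts of genes past the threshold given below for organ and gate were the same. Below, a level is the UMIs of a gene per 1000000 UMIs of a sample after TMM scaling (CPM), each run scaled separately, and it is not compared between genes or runs. All 6 genes of a T cell list (Cd3d, Cd3e, Cd3g, Cd4, Lck and Cd2) had UMIs in every sample, and the Th2 genes Il4, Gata3 and Il1rl1 summed to 344 to 387 unscaled CPM in IL-4eGFP+ samples against 31.6 to 45.4 in IL-4eGFP- samples.

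The first comparison asked how the chaperone genes of IL-4eGFP+ cells differed between lung and MLN. Cytosolic HSP70 genes and several of their J protein partners were higher in lung, led by the inducible pair Hspa1a and Hspa1b, whereas genes of HSP90, of the mitochondrial folding machinery and of the ER HSP70 and HSP90 did not pass the test. UMIs were summed per library and compared by the quasi-likelihood test of edgeR. The p-values were adjusted by Benjamini-Hochberg over the 10587 genes tested, and the threshold was 0.05. Of the 75 genes listed, 58 passed the filter on low counts, and 15 of these were called, 12 higher and 3 lower in lung. Across all genes tested 31% were called, 17% higher and 14% lower. The median log2 fold change of the 58 genes was 0.10 and that of all genes was -0.01.

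Hspa1a, the inducible HSP70, had levels of 154 and 93.4 in lung 1 and lung 2 against 19.0 and 3.85 in MLN 1 and MLN 2. Both lung libraries stood well above both MLN libraries, and the MLN libraries were far apart from each other. The log2 fold change was 3.22 ± 0.43 (SE, 2 libraries per organ, edgeR adjusted p = 0.00049). Over 15 other settings it ranged from 2.71 to 5.01, the latter without MLN 1, where 1 MLN library was left. Its twin Hspa1b had levels of 61.6 and 47.4 in lung against 10.4 and 4.71 in MLN. It differed by 2.71 ± 0.26 on the log2 scale (edgeR adjusted p = 6e-05). Over the other settings this ranged from 2.36 to 3.55, the latter again without MLN 1. The 2 genes differed in the same direction, in groups that did not overlap. Since the split of reads between them is uncertain, they are not read as 2 separate observations.

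The UMIs of Hspa1a were found in few cells. At least 1 UMI was detected in 160 of 1082 cells of lung 1 (14.8%, 95% Clopper-Pearson interval 12.7 to 17) and 50 of 416 cells of lung 2 (12%, 9.05 to 15.5), against 149 of 2462 cells of MLN 1 (6.05%, 5.14 to 7.07) and 14 of 754 cells of MLN 2 (1.86%, 1.02 to 3.10). The median depth was 6910 and 5765.5 UMIs per cell in lung against 4980 and 4971 in MLN. After thinning each cell to 2000 UMIs the shares were 9.08% and 7.84% in lung and 3.57% and 0.808% in MLN, so that the order stayed. These intervals cover counting error only, and no cell type that should lack the transcript was at hand to set the background. Among the thinned cells of lung 1, the 5% with the most Hspa1a held 85.4% of its UMIs, with up to 26 UMIs in 1 cell, while for Hspd1, which had nearly as many UMIs there (304 against 295), the top 5% held 32.2%, with up to 3 UMIs in 1 cell.

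Hspa8, the HSP70 made at all times, had levels of 3437 and 2968 in lung and 2007 and 1913 in MLN. All but a few cells carried it in either organ (99.3% to 99.8%), so that the share of cells with it hardly differed. Its log2 fold change was 0.71 ± 0.14 (edgeR adjusted p = 0.0053), which lost the call without MLN 1 (adjusted p = 0.071) or without MLN 2 (adjusted p = 0.12). Hspa4, an exchange factor of the HSP110 type, stood at 362 and 269 in lung and 195 and 163 in MLN, a log2 difference of 0.82 ± 0.16 (edgeR adjusted p = 0.0039). Of its relatives, Hsph1 had levels of 87 and 82.0 against 75.3 and 69.7, a log2 difference of 0.22 ± 0.11 that did not pass (edgeR adjusted p = 0.17).

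Among J proteins of the cytosol and nucleus, 4 of 9 tested were higher in lung and none was lower. Dnajb6, which keeps proteins from aggregating, rose most of the well-counted ones, from 114 and 124 in MLN to 305 and 222 in lung (log2 fold change 1.16 ± 0.15, edgeR adjusted p = 0.00047). A UMI of Dnajb6 was found in 79.9% and 70.9% of lung cells and 46.1% and 51.3% of MLN cells. Dnajb1, the main stress-inducible partner of HSP70, had levels of 169 and 147 in lung and 107 and 92 in MLN (0.67 ± 0.12, edgeR adjusted p = 0.0033), and Dnaja1, another cytosolic partner, 593 and 456 against 361 and 347 (0.57 ± 0.14, edgeR adjusted p = 0.014). For all 3 genes the groups did not overlap, yet the call of Dnaja1 was lost without MLN 1 (adjusted p = 0.074) or MLN 2 (adjusted p = 0.12) and that of Dnajb1 just missed the threshold without MLN 2 (adjusted p = 0.0501). Dnajb13, an axonemal J protein that was named after its values were seen, had levels below 11 in all 4 libraries (10.6 and 8.55 against 3.33 and 4.07).

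**Figure D1:**
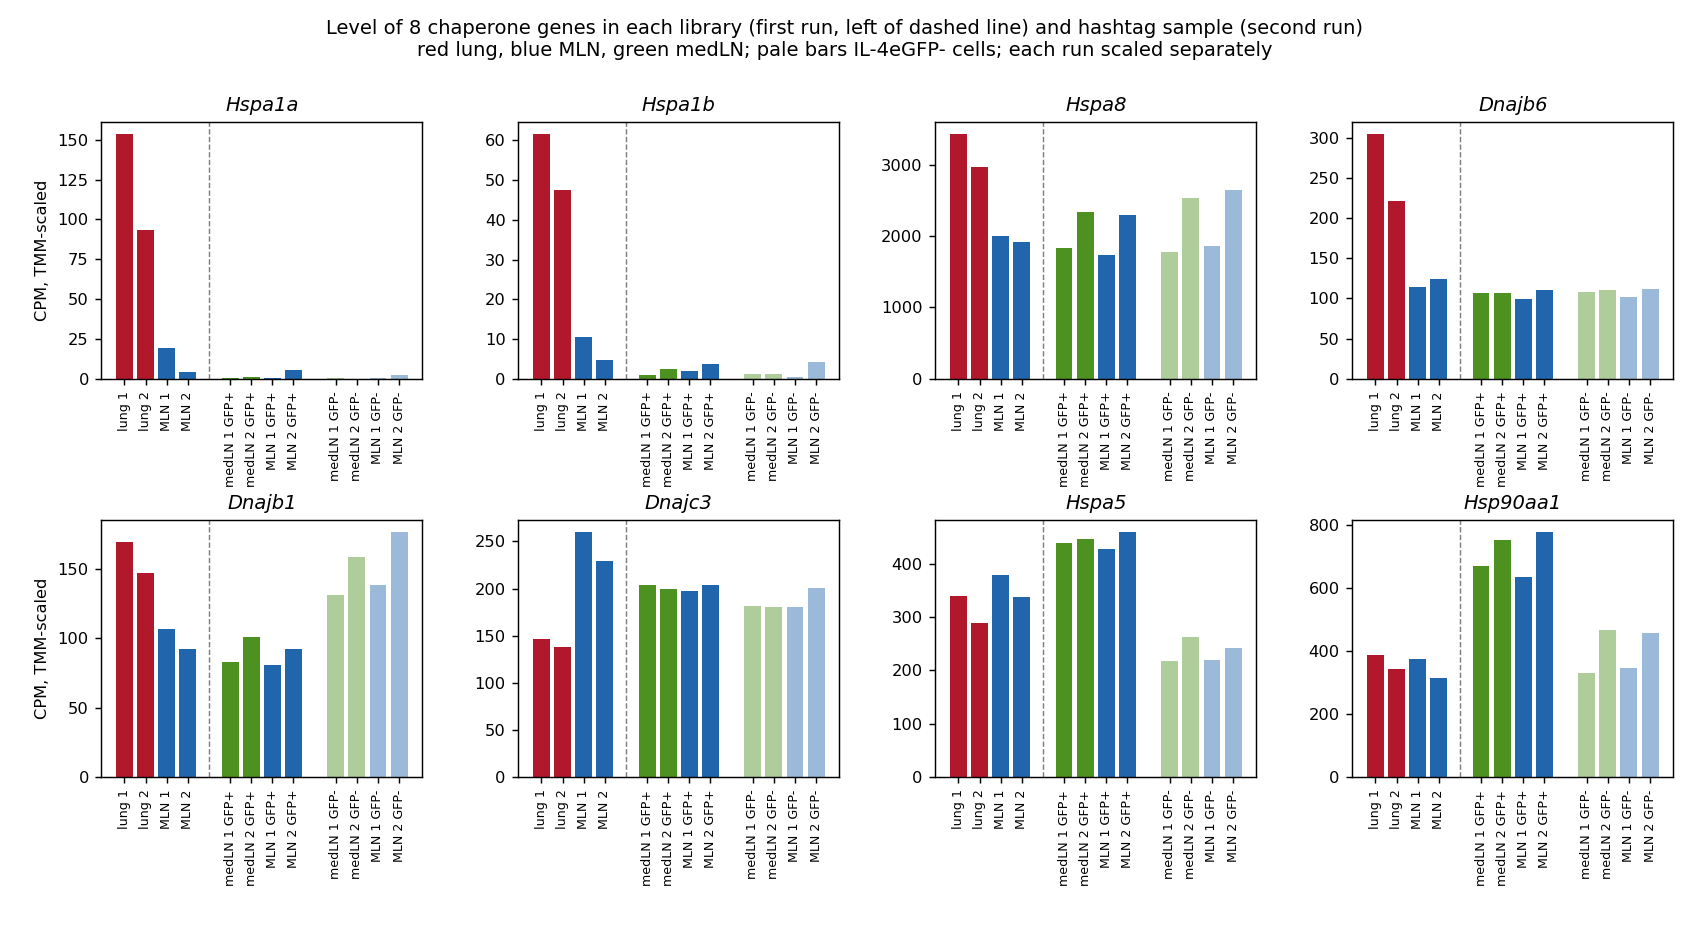
Level of 8 chaperone genes (y axes, CPM after TMM scaling, from 0) in each first-run library (left of the dashed line) and second-run hashtag sample, with lung in red, MLN in blue, medLN in green and IL-4eGFP- samples in pale colors; each bar is 1 sample. Hspa1a, Hspa1b, Hspa8, Dnajb6 and Dnajb1 are higher in both lung libraries than in both MLN libraries and Dnajc3 is lower, while Hspa5 and Hsp90aa1 differ between the gates.

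The genes of cytosolic HSP90 did not pass the test. Hsp90aa1, the inducible form, had levels of 388 and 342 in lung and 375 and 314 in MLN, a log2 difference of 0.09 ± 0.13 (edgeR adjusted p = 0.66). Hsp90ab1, the form made at all times, had levels of 2358 and 2098 in lung and 2163 and 1926 in MLN (0.12 ± 0.14, edgeR adjusted p = 0.54). The groups overlapped for both genes.

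In mitochondria, Hspd1 (HSP60), Hspe1 (HSP10) and Hspa9 (the HSP70 of the organelle) had log2 differences of 0.16 ± 0.12, -0.10 ± 0.13 and -0.02 ± 0.13, with edgeR adjusted p of 0.37, 0.60 and 0.93. Of the 3 genes whose windows hold the strict element, Dnajb6 was thus called between organs and Hspd1 and Hspe1 were not, and their changes were not tested against each other. The J proteins of mitochondria went both ways. Dnajc15, which sits in the inner membrane and holds back respiration, stood at 130 and 154 in lung and 75.4 and 81.1 in MLN (log2 fold change 0.85 ± 0.12, edgeR adjusted p = 0.00079). Dnajc30 was at 25.0 and 23.2 in lung against 36.5 and 33.2 in MLN (-0.53 ± 0.14, edgeR adjusted p = 0.018), a call that was lost with DESeq2, with thinned cells and without MLN 1 (adjusted p up to 0.18).

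The main chaperones of the ER did not pass either. Hspa5 (BiP, the main HSP70 of the ER) had levels of 339 and 289 in lung and 378 and 338 in MLN, and Hsp90b1 (GRP94, its HSP90) had levels of 300.0 and 303 against 256 and 234. Their log2 differences of -0.19 ± 0.13 and 0.30 ± 0.11 did not pass (edgeR adjusted p = 0.30 and 0.072). Of 11 J proteins of the ER, 1 was higher and 1 lower. Dnajc3, which brakes the PERK arm of the unfolded protein response, was lower, at 147 and 138 in lung against 260 and 229 in MLN (log2 fold change -0.78 ± 0.12, edgeR adjusted p = 0.00099). Dnajb9, a J protein that helps to degrade misfolded ER proteins, was at 36.7 and 23.9 in lung and 21.0 and 19.5 in MLN (0.63 ± 0.19, edgeR adjusted p = 0.034). This call was kept in 9 of 15 other settings and was lost without lung 1, where the log2 difference was 0.23, and without MLN 1 or MLN 2 (adjusted p = 0.073 and 0.11).

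Of the remaining called genes, Dnajc6 (auxilin, which strips clathrin from vesicles) was at 30.2 and 23.2 in lung and 9.65 and 7.70 in MLN, a log2 difference of 1.61 ± 0.20 (edgeR adjusted p = 0.0003). Hspb11, which is in the set by its symbol only, was lower, at 21.4 and 17.5 in lung against 33.4 and 32.5 in MLN (-0.73 ± 0.15, edgeR adjusted p = 0.0053). Hspa2, an HSP70 best known from the testis and named here after its values were seen, was at 16.2 and 12.8 against 2.60 and 3.00. Small heat shock proteins were at the limit of detection. Hspb1 had 1, 0, 2 and 2 UMIs in lung 1, lung 2, MLN 1 and MLN 2 and 1 to 5 UMIs in each second-run sample, and of 7 such genes 1, Hspb6, passed the filter.

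**Figure D2:**
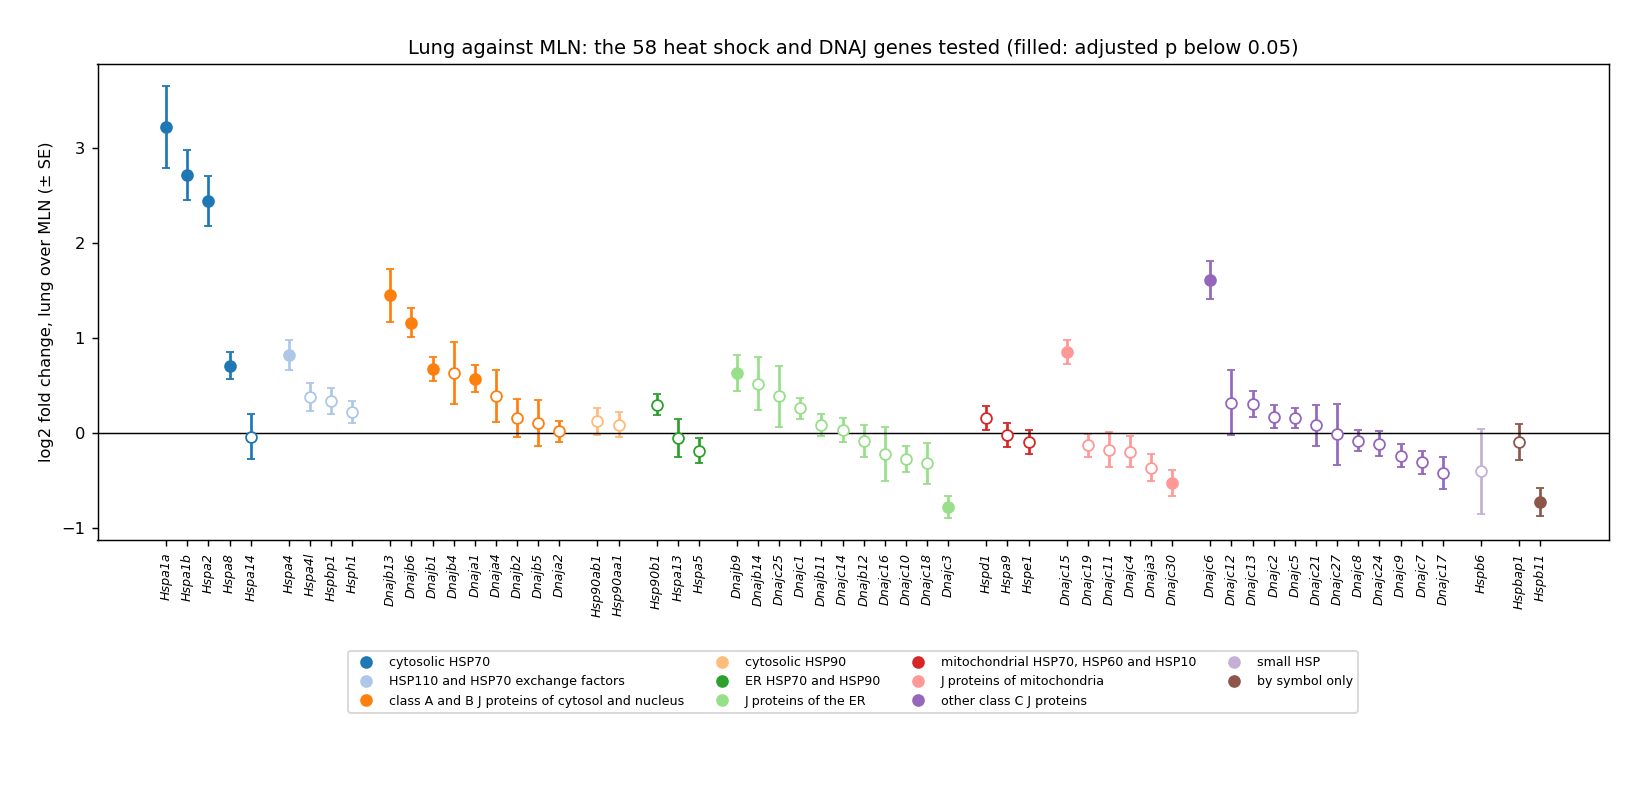
Log2 fold change of lung over MLN (y axis, ± SE of the edgeR fit) for the 58 heat shock and DNAJ genes tested, grouped and colored by role, with filled circles for an adjusted p below 0.05. Filled circles lie above 0 in the cytosolic HSP70 group (Hspa1a at 3.22) and among J proteins of cytosol and nucleus, and open circles fill the HSP90, ER and mitochondrial HSP groups.

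Genes outside the families gave the setting. Of 17 early response genes that are also induced by tissue dissociation, 15 were higher in lung, with a median log2 fold change of 2.3, led by Atf3 (8.09), Nr4a1 (4.96), Dusp1 (4.78) and Ier3 (4.54), while Egr2 was lower (-1.48). The part of tissue preparation in the chaperone differences was not tested. Of 26 tested genes of the unfolded protein response, 5 were higher, with Ppp1r15a (4.45), Ern1 (1.96), Atf4 (1.08) and Eif2ak3 (0.82) in front, and Pdia6 (-0.50) and Syvn1 (-0.47) were lower. Of 37 tested co-chaperones and chaperonin genes, 4 were higher, namely Sugt1 (0.53), Vbp1 (0.44), Unc45a (0.43) and Cdc37 (0.39), and Bag5 (-0.78) and Ppid (-0.55) were lower. Hsf1 itself differed by 0.04 ± 0.12 (edgeR adjusted p = 0.84).

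Markers of some other cell types also moved with organ, and their part in the result was not tested. Summed over 10 myeloid genes, levels before scaling were 62.6 and 55.6 CPM in lung and 76.5 and 154 in MLN, with Lyz2 and the C1q genes at 0 in lung, and summed over 6 B cell genes they were 93.7 and 127 in lung and 240 and 265 in MLN. The CD8 genes summed to 10.1 and 11.5 in lung against 9.21 and 6.29 in MLN, and 7 genes of the exocrine pancreas to 0 and 0.358 against 2.77 and 106. Sftpc and the 4 globin genes were at 0 in all 4 libraries. Without the 5, 2, 76 and 62 cells that carried such markers, 15 chaperone genes (25.9%) were called again, where 31.2% of all genes were. Cycling cells were 8.04% and 8.89% of lung cells and 4.47% and 3.85% of MLN cells. Without them 17 genes (29.3%) were called, 13 higher and 4 lower, where 32.1% of all genes were called. With each library left out in turn, the share of chaperone genes called moved up or down with that of all genes. Scaling by library totals, which moved the median of all genes from -0.01 to -0.15, gave 11 higher and 7 lower. Of all genes, 12.4% were then called higher and 19.4% lower.

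The second comparison, between medLN and MLN, asked whether the nodes that drain lung and gut differ. No chaperone gene passed the test in either gate. Among IL-4eGFP+ cells, 59 genes were tested and 0 called by edgeR or DESeq2, where 1.28% of all genes were called. At an unadjusted p under 0.05 there were 8 (13.6%), close to the 12.4% of all genes. The nearest was Hspb11, at 19.98 and 25.37 in medLN and 34.9 and 31.9 in MLN (log2 difference -0.56 ± 0.12, edgeR adjusted p = 0.084), and it passed (adjusted p = 0.029) without cells that carried markers of other cell types. Among IL-4eGFP- cells, 56 were tested and 0 called by either tool, where 0.178% of all genes were called. At an unadjusted p under 0.05 there were 2 (3.57%), against 6.23% of all genes. The difference between gates in this contrast was past the threshold for 0 of 61 genes with both tools and for 0.156% of all genes, and 1 gene (1.64%) had an unadjusted p under 0.05 against 7.0% of all genes.

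Of the most abundant genes, Hsp90aa1 had an IL-4eGFP+ mean of 710 ± 56.9 in medLN and 706 ± 99.9 in MLN (SD, n = 2), a log2 difference of 0.01 ± 0.09 (SE). Hspa8 had means of 2091 ± 356 and 2012 ± 395 (0.05 ± 0.13). In both genes the spread between mice was wider than the gap between nodes. Hspa1a was near the floor in this run, with 4, 9, 5 and 60 UMIs in medLN 1, medLN 2, MLN 1 and MLN 2 of the IL-4eGFP+ gate and 2, 0, 3 and 18 in the other. It did not pass the filter between gates, and among IL-4eGFP+ cells it was called between nodes only without MLN 1 (log2 -3.04, adjusted p = 0.024), where a single MLN sample with 60 UMIs was left.

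The third comparison asked how cells that had turned on the IL-4 reporter differed from CD4+ T cells of the same nodes that had not. The 3 HSP70 and HSP90 genes of the ER were higher in IL-4eGFP+ cells, and Dnajc7, Dnajb1 and Dnaja1 among the J proteins of the cytosol were lower. Both cytosolic HSP90 genes were higher as well, but not when cycling cells were left out. Of 60 genes tested, 37 (61.7%) were called, 21 higher and 16 lower, close to the 63% of all 11034 genes that were called, 31.3% higher and 31.8% lower. The median log2 fold change of the 60 genes was -0.01 and that of all genes was -0.02. DESeq2 called 26 of the 60 genes (43.3%), where it called 51.7% of all genes.

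All 3 HSP70 and HSP90 genes of the ER were higher. Hspa5 had levels of 438 and 446 in medLN and 428 and 459 in MLN of the IL-4eGFP+ gate, against 218 and 262 in medLN and 219 and 242 in MLN of the other gate. The gates did not overlap, and the log2 fold change was 0.91 ± 0.06 (4 samples per gate, edgeR adjusted p = 3.4e-08). Hsp90b1 ranged from 355 to 473 against 205 to 259 (0.89 ± 0.09, edgeR adjusted p = 3.6e-06). Hspa13, a small HSP70-like ATPase of the ER, ranged from 17 to 21.3 against 8.02 to 9.72 (1.06 ± 0.09, edgeR adjusted p = 7.2e-07).

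Of the 11 J proteins of the ER, 6 were higher and 3 lower. Dnajb11, a soluble partner of BiP, ranged from 107 to 118 against 78.4 to 83.2 (log2 fold change 0.48 ± 0.05), and Dnajc1, a membrane-bound one, from 62.8 to 73.4 against 48.1 to 51.6 (0.46 ± 0.06). Dnajb14 was higher by 0.42 ± 0.09, though the gates overlapped. Dnajb9 was lower, at 11.1 to 15.2 against 16.6 to 20.4 (-0.43 ± 0.10, edgeR adjusted p = 0.0024). Its call was lost without cycling cells and with scaling by library totals (edgeR adjusted p up to 0.086). Dnajc14 was lower too, by -0.18 ± 0.07, a call that was kept in only 9 of 18 other settings. It was lost with DESeq2, without cycling cells, with thinned cells and with any of the 4 MLN samples left out. Among 27 genes of the unfolded protein response 16 were higher and 2, Ppp1r15a and Eif2ak3, were lower.

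Dnajc7, a J protein with repeats that dock on both HSP70 and HSP90, had the largest fall among the called genes with a mean level of at least 10. It had levels of 117 and 113 in medLN and 115 and 116 in MLN of the IL-4eGFP+ gate, against 321 and 288 in medLN and 275 and 348 in MLN of the other gate. The 4 IL-4eGFP+ values lay close together and far below the others (log2 fold change -1.42 ± 0.07, edgeR adjusted p = 2.9e-09). Dnajb1 ranged from 80.7 to 101 against 131 to 176 (-0.76 ± 0.09, edgeR adjusted p = 1.7e-05) and Dnaja1 from 332 to 406 against 455 to 638 (-0.58 ± 0.11, edgeR adjusted p = 0.00043). Dnaja3, a J protein of mitochondria, fell slightly (-0.27 ± 0.08). Other genes moved with them: 9 of 15 early response genes were lower in IL-4eGFP+ cells, led by Jun (-1.77), Klf2 (-1.36) and Socs3 (-1.31), 4 were higher (Ier3, Egr2, Fos and Egr1), and Hsf1 was lower by -0.53 ± 0.06 (edgeR adjusted p = 1e-05). Their part in the difference of the J proteins was not tested. The 2 genes tested that are in the set by symbol only were also lower, Hspbap1 (-0.72 ± 0.08) and Hspb11 (-0.59 ± 0.10).

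Cytosolic HSP90 was higher in IL-4eGFP+ samples, with 635 to 776 against 329 to 465 for Hsp90aa1 (log2 fold change 0.83 ± 0.11, edgeR adjusted p = 2.8e-05) and 2616 to 3005 against 1980 to 2696 for Hsp90ab1 (0.26 ± 0.09, edgeR adjusted p = 0.024). The latter overlapped between gates and lost its call in 7 of 18 other settings, among them without medLN 2 or MLN 2 of the IL-4eGFP+ gate and without medLN 1 or MLN 1 of the other. The exchange factor Hspa4l rose by 0.73 ± 0.09 and Dnajc2, a J protein that sits on ribosomes, by 0.36 ± 0.05. The call of Dnajc2 was lost without cycling cells and with thinned cells (edgeR adjusted p up to 0.16). Hspa8, Hsph1, Dnajb6 and Hspa1b differed by -0.11 ± 0.13, -0.07 ± 0.21, -0.03 ± 0.05 and 0.43 ± 0.49 and did not pass. Mitochondrial genes were split, with Hspd1 higher (0.44 ± 0.06) and Hspe1 (-0.20 ± 0.07) and Hspa9 (-0.16 ± 0.05) lower, together with the exchange factor Hspbp1 (-0.19 ± 0.05). Of these, Hspe1 and Hspbp1 overlapped between the gates. The call of Hspe1 was lost without medLN 1 or MLN 1 of the IL-4eGFP+ gate or medLN 2 or MLN 2 of the other (adjusted p up to 0.14), and that of Hspa9 without MLN 1 of the former or medLN 2 or MLN 2 of the latter (adjusted p up to 0.073).

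Markers of other cell types differed between the gates as well. Of 7 myeloid genes tested, 4 were higher in IL-4eGFP+ samples (Lyz2, C1qa, C1qb and C1qc), with a median of 1.71 over the list. Igkc and Krt18 were higher too, whereas Ighm, Epcam and Cd8b1 were lower. The sum over the 10 myeloid genes was 179 to 300.2 CPM against 132 to 290.4, and that over the 6 B cell genes 175 to 315 against 200.3 to 232. Cells that carried such markers numbered 49 to 167 in IL-4eGFP+ samples and 42 to 59 in the others. Without them, a choice made after the data were seen, 36 of 59 chaperone genes (61.0%) were called, 19 higher and 17 lower, where 64.1% of all genes were called. The log2 differences of Hspa5 (0.93 ± 0.06), Hsp90b1 (0.85 ± 0.09), Hspa13 (1.07 ± 0.09) and Dnajc7 (-1.45 ± 0.07) were then close to those of all cells.

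IL-4eGFP+ samples held far more cycling cells, which made up 9.54% to 12.6% of cells and 30.3% to 35.8% of UMIs, against 1.16% to 1.77% and 3.50% to 6.14% in the other gate. Without them 30 of 57 chaperone genes (52.6%) were called, 12 higher and 18 lower, where 55.9% of all genes were called. Hsp90aa1 then differed by only 0.08 ± 0.11 (edgeR adjusted p = 0.60) and Hsp90ab1 by -0.05 ± 0.10 (adjusted p = 0.71). Hspd1 turned from 0.44 to -0.25 ± 0.08 (adjusted p = 0.020), and Hspa8 was now called lower (-0.41 ± 0.13, adjusted p = 0.018). The differences of Hspa5 (0.88 ± 0.06), Hspa13 (1.06 ± 0.11), Dnajc7 (-1.41 ± 0.07), Dnajb1 (-0.82 ± 0.10) and Dnaja1 (-0.59 ± 0.10) were nearly as before, and that of Hsp90b1 was smaller but passed (0.36 ± 0.09, adjusted p = 0.0025). Scaling by library totals, which moved the median of all genes from -0.02 to 0.18, gave 26 higher and 8 lower. Of all genes, 46.9% were then called higher and 18.1% lower. Hspe1, Hspbp1, Dnajc14, Hspa9, Dnajb9 and Dnaja3 no longer passed and Dnajb6 was higher (0.17).

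**Figure D3:**
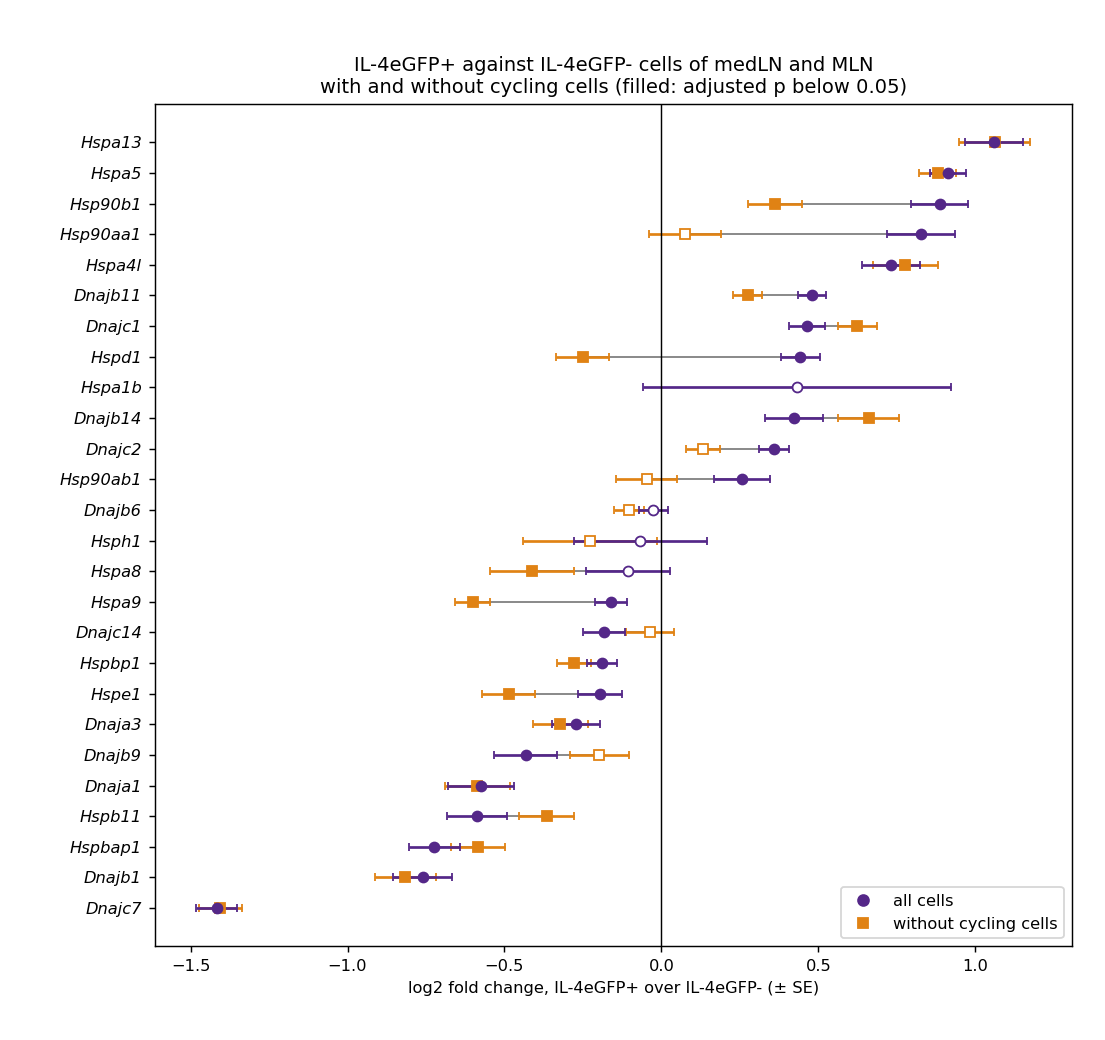
Log2 fold change of IL-4eGFP+ over IL-4eGFP- cells (x axis, ± SE of the edgeR fit) for named chaperone genes (y axis), with all cells (purple circles) and without cycling cells (orange squares); filled symbols have an adjusted p below 0.05. Hspa5, Hspa13, Dnajc7, Dnaja1 and Dnajb1 keep their place, whereas Hsp90aa1 moves from 0.83 to 0.08 and Hspd1 from 0.44 to -0.25.

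Set side by side, 9 genes were called both between organs in the first run and between gates in the second, which is 60% of the 15 and 24.3% of the 37. Of all genes, 31% were called between organs and 63% between gates, so that the 60% is close to the latter share. The overlap among all genes was not counted. Dnajc6, Dnajb13, Hspa4 and Hspa2 were higher in lung and in IL-4eGFP+ cells, and Hspb11 was lower in both. Dnaja1, Dnajb1 and Dnajb9 were higher in lung and lower in IL-4eGFP+ cells, and Dnajc3 was lower in lung (-0.78) and higher in IL-4eGFP+ cells (0.11 ± 0.04), the latter a call that was lost when any of 6 of the 8 samples was left out (adjusted p up to 0.094). Dnajb6 and Hspa8 passed between organs and not between gates when all cells were taken. The runs hold different mice and preparations, and the 2 contrasts were not tested against each other.

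The fourth comparison asked how the genes differ between cycling and other cells of the same sample. A cell was called cycling when it had a UMI of 3 or more of 8 cell cycle genes (Mki67, Top2a, Birc5, Cdk1, Ccnb2, Cenpf, Tpx2 and Ube2c), none of which is a chaperone. This is a range of a score and not a cell type: 29 cells of lung 1 had 2 of these genes and 26 had 3. The cytosolic HSP90 genes, the mitochondrial HSP60 system and the constitutive HSP70 were higher in cycling cells in both runs, that is, in different mice. In the first run, of these, only Hsp90aa1 kept its call when cells were thinned before they were classed. In lung and MLN, 26 of 54 genes tested were called, 15 higher and 11 lower, where 42.4% of all genes were called, 20% higher and 22.4% lower. In IL-4eGFP+ cells of medLN and MLN, 44 of 56 were called, 28 higher and 16 lower, where 70.6% of all genes were called, 34.7% higher and 35.9% lower.

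Of 53 genes tested in both runs, 23 were called in both (88.5% of the 26 and 52.3% of the 44), 15 higher and 8 lower, and 0 in opposite directions. Of all genes, 42.4% and 70.6% were called in the 2 runs. Their overlap was not counted, so that the shared calls are not read as particular to the chaperone genes. The 2 runs share no mice and no samples. Median log2 fold changes were 0.03 in the first run and 0.28 in the second for the chaperone genes and -0.09 and -0.04 for all genes. Scaling by library totals shifted these medians of all genes to -0.12 and -0.20 and gave 24 higher and 19 lower in the second run. With this scaling, 28.02% of all genes were called higher in that run and 44.61% lower.

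Hsp90aa1 rose most among the HSP genes. Its level in cycling cells was 690 and 563 for the lung libraries and 976 and 618 for the MLN libraries, against 320, 292, 296 and 282 among their other cells. In the second run it was 1456, 1490, 1489 and 1577 in cycling cells of medLN 1, medLN 2, MLN 1 and MLN 2, against 346, 449, 349 and 427. Cycling cells were higher in 8 of 8 samples, which come from 2 mice in each run. The log2 fold changes were 1.24 ± 0.12 and 1.94 ± 0.05 (edgeR adjusted p = 1.5e-08 and 2.3e-13). Hsp90ab1 rose by 0.48 ± 0.10 and 0.99 ± 0.05. With cells thinned before they were classed, its first-run difference turned to -0.0533 and its call was lost (edgeR adjusted p = 0.88).

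Hspd1 followed, at 285, 231, 342 and 218 in cycling cells of lung 1, lung 2, MLN 1 and MLN 2 against 144, 139, 135 and 124 in the others (log2 fold change 1.00 ± 0.12, edgeR adjusted p = 4.2e-07). In the second run it rose by 1.74 ± 0.07, from 153 to 184 in the other cells to 507 to 609 in cycling cells. Its partners in mitochondria rose too, Hspa9 by 0.61 ± 0.13 and 1.2 ± 0.06 and Hspe1 by 0.38 ± 0.12 and 0.92 ± 0.06. Dnajc15 and Dnajc19, J proteins of the import motor, rose by 0.51 ± 0.13 and 0.67 ± 0.07 and by 0.48 ± 0.12 and 0.61 ± 0.05. In the first run the classes overlapped across libraries for Hspe1, Dnajc15 and Dnajc19, while within a library cycling cells were higher in 3 of 4 for Hspe1 and in 4 of 4 for the others. In the first run the call of Hspe1 was lost without the block, without MLN 1 or MLN 2 and with cells thinned before they were classed (adjusted p of 0.14, 0.13, 0.073 and 0.59). Those of Dnajc15 and Dnajc19 were lost without MLN 1 (0.086 and 0.063), and that of Hspa9 at equal depth, with 0.37 ± 0.27 (adjusted p = 0.36) when thinned after classing and -0.25 ± 0.43 (adjusted p = 0.80) when thinned before.

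Dnajc9, a J protein that works as a chaperone of histones, had the largest rise in the first run. It was at 137, 152, 169 and 218 in cycling cells of lung 1, lung 2, MLN 1 and MLN 2 against 36.8, 44.3, 55.9 and 55 in the others (log2 fold change 1.80 ± 0.12, edgeR adjusted p = 2.6e-11), and it rose by 1.28 ± 0.06 in the second run. Genes of ribosome-bound chaperones rose as well, Dnajc2 by 0.58 ± 0.14 and 0.84 ± 0.05 and its partner Hspa14 by 0.90 ± 0.14 and 0.81 ± 0.07, as did Dnajc21, which acts in ribosome assembly, by 0.62 ± 0.21 and 0.49 ± 0.07. In the first run Dnajc2 and Dnajc21 lost their calls without MLN 1 (adjusted p = 0.062 and 0.091), and Dnajc21 also without MLN 2 (0.086). At equal depth, thinned before or after classing, Hspa14 and Dnajc2 lost theirs in that run (edgeR adjusted p up to 0.66 for Hspa14). Hspa8 was 3210, 2789, 1867 and 1789 in other cells and 4252, 3731, 3062 and 3117 in cycling cells of the first run (0.58 ± 0.10), with 0.98 ± 0.05 in the second. Its first-run call was lost without the block and with cells thinned before they were classed (edgeR adjusted p up to 0.081).

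In the ER, Hsp90b1 rose by 0.96 ± 0.12 and 1.52 ± 0.06 and Dnajb11 by 0.61 ± 0.11 and 0.79 ± 0.05. In the first run Dnajb11 lost its call at equal depth, thinned before or after classing (edgeR adjusted p up to 0.91). Hspa5 differed by 0.20 ± 0.11 (edgeR adjusted p = 0.14) in the first run and rose by 0.34 ± 0.04 in the second. Its second-run call was lost with cells thinned before they were classed (log2 -0.0421, edgeR adjusted p = 0.76). The inducible pair Hspa1a and Hspa1b had no such pattern. Hspa1a differed by 0.29 ± 0.17 (edgeR adjusted p = 0.17) in the first run. Hspa1b was lower there (-1.09 ± 0.27, edgeR adjusted p = 0.0026), a call that was lost without the block (edgeR adjusted p = 0.53). In the second run Hspa1b differed by 0.64 ± 0.36 (edgeR adjusted p = 0.12). Hsph1 passed in the second run only, at 0.63 ± 0.07 against 0.00 ± 0.13 in the first. Its call was lost at equal depth, thinned before or after classing (edgeR adjusted p up to 0.68).

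The genes lower in cycling cells of both runs were J proteins, several of them with few UMIs, and Hspbap1. Dnajb2 was lowest, at 1.73 to 7.81 in 3 libraries and 0 in MLN 2 against 11.5 to 13 (log2 fold change -1.90 ± 0.40 in the first run and -1.88 ± 0.32 in the second). Dnaja4 differed by -0.79 ± 0.29 and -1.31 ± 0.16, Dnajc14 by -0.62 ± 0.16 and -0.33 ± 0.10, Dnajc1 by -0.34 ± 0.13 and -0.39 ± 0.07, Dnajc6 by -0.95 ± 0.26 and -0.51 ± 0.20, and Hspbap1 by -1.0 ± 0.28 and -0.36 ± 0.13. The other 2 were Dnajb5 and Dnajc16. Several of these calls were not stable. With cells thinned before they were classed, 0 of 38 genes were called lower in the first run and 1 of 47 in the second. Of all genes, 5.59% and 15.7% were then called lower. With thinning after classing, 1 and 4 genes were called lower, where 11.9% and 20.9% of all genes were. In the first run Dnajc1 kept its call in 3 of 12 other settings and lost it with any library left out (adjusted p = 0.0504 to 0.16), and in the second it turned sign with thinned cells (0.0467). Dnaja4 kept its call in 4 of 10 settings of the first run and lost it without lung 2, MLN 1 or MLN 2 (adjusted p up to 0.084), and Hspbap1 in 5 of 12 of the second, with losses without medLN 1, medLN 2 or MLN 2 (adjusted p up to 0.11). Dnajc6 lost its call without lung 1 in the first run (adjusted p = 0.14) and without medLN 1, medLN 2 or MLN 2 in the second (up to 0.22), Dnajb5 without lung 1 or MLN 1 (up to 0.15), Dnajc16 without lung 1, MLN 1 or MLN 2 (up to 0.21) and Dnajc14 without medLN 1 (0.053). In the second run Dnajb9 (-0.78 ± 0.17), Dnajb14 (-0.71 ± 0.12) and Hspb11 (-0.70 ± 0.10) were lower too. The calls of Dnajb9 and Dnajb14 were lost at equal depth, thinned before or after classing (edgeR adjusted p up to 0.63 and 0.52). That of Hspb11 was kept.

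**Figure D4:**
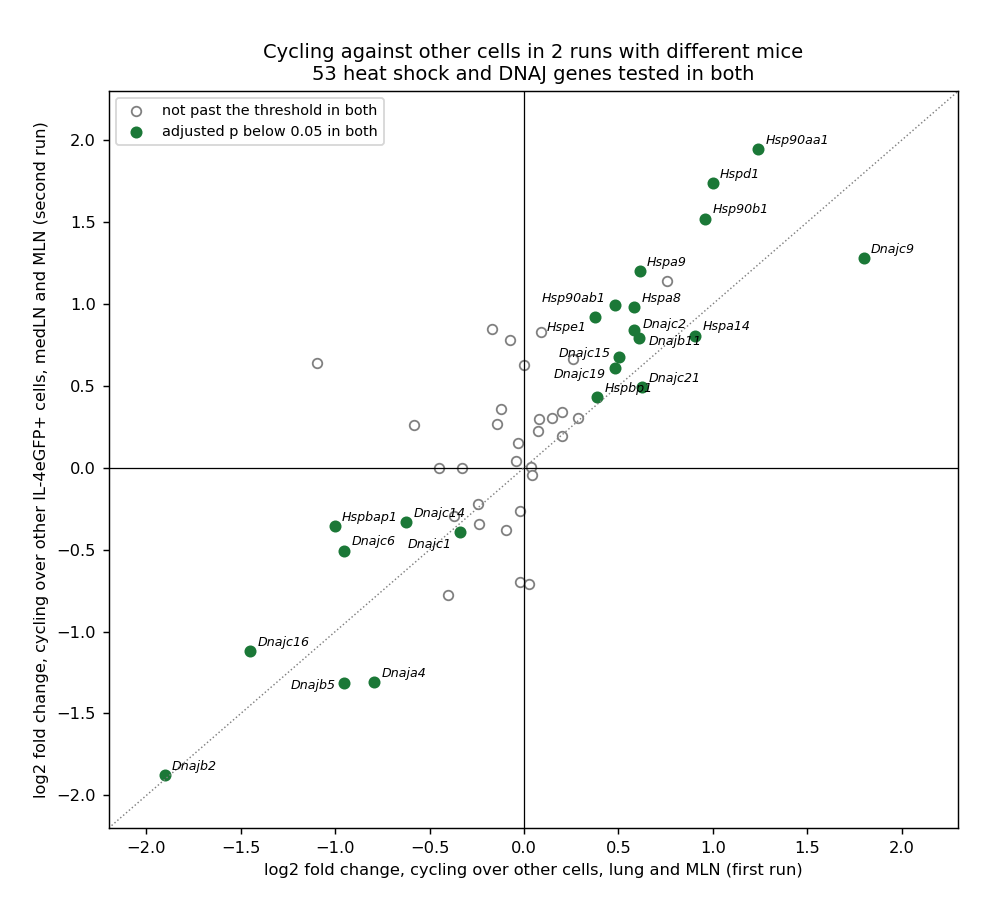
Log2 fold change of cycling over other cells in lung and MLN (x axis, first run) and in IL-4eGFP+ cells of medLN and MLN (y axis, second run, other mice) for the 53 chaperone genes tested in both; green points are past the threshold in both and the dotted line marks equal values. The 15 genes higher in both, with Hsp90aa1, Hspd1, Hsp90b1 and Dnajc9 farthest out, and the 8 lower in both fill opposite corners.

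Outside the families, many partner genes were also called. Of the co-chaperones and chaperonin genes, 17 were higher and 3 lower of 37 tested in the first run, and 30 were higher and 4 lower of 38 in the second, among them Stip1, Ahsa1, Ptges3 and the chaperonin subunits Tcp1, Cct2, Cct5 and Cct7 in both. Of the early response genes, 12 of 17 were lower in the first run and 11 of 15 in the second, with Klf2 higher in each, and all 6 T cell genes were lower in both runs. Cycling cells were deeper, with a median of 15293, 12084, 15001.5 and 14421 UMIs in lung 1, lung 2, MLN 1 and MLN 2 against 6667, 5584, 4887.5 and 4884. When cells were classed first and then thinned to 2000 UMIs in the first run and 1500 in the second, 9 of 38 (23.7%) and 21 of 47 (44.7%) chaperone genes were called, where 23.5% and 43.9% of all genes were. Hsp90aa1 (1.06 ± 0.13 and 1.64 ± 0.06), Hspd1 (0.84 ± 0.17 and 1.32 ± 0.09), Hsp90b1 (0.79 ± 0.14 and 1.47 ± 0.07), Dnajc9 (1.07 ± 0.25 and 1.26 ± 0.12) and Hspa8 (0.48 ± 0.11 and 0.79 ± 0.04) were among them in both runs. When cells were thinned before they were classed, which left 42, 18, 56 and 16 cycling cells in lung 1, lung 2, MLN 1 and MLN 2, 3 of 38 (7.89%) and 15 of 47 (31.9%) genes were called, where 13.4% and 32.3% of all genes were, and in the first run these were Hsp90aa1, Hsp90b1 and Dnajc9.

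Whether the cycling difference itself differed between lung and MLN was tested in the first run. It did for 1 of 54 genes (1.85%), Dnajc3, which is close to the 1.72% of all genes that were called. In lung, Dnajc3 was at 165 and 195 in cycling cells and 140 and 124 in others, whereas in MLN it was at 195 and 176 in cycling cells and 268 and 234 in others. Thus the levels of cycling cells overlapped between the organs and those of other cells did not. The log2 difference between organs was 0.84 ± 0.18 (edgeR adjusted p = 0.0175). This test was not repeated with thinned cells, with DESeq2 or with a library left out.

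The 2 mice of the second run differed in the level of several chaperones, a pattern chosen after its values were seen and given as a description without a test. Of 60 genes, 15 (25%) were higher in mouse 2 in 4 of 4 pairs of samples, where this held for 10.6% of all genes, and 3 (5%) were lower in 4 of 4, where 9.05% of all genes were. Hsph1 was at 74.6 and 113 in medLN and 80.9 and 107 in MLN of mouse 1 and mouse 2 in the IL-4eGFP+ gate, and at 61.9 and 133 in medLN and 76.8 and 123 in MLN of the other gate. The ratio was 1.32 to 2.15. For Hspa8 it was 1.27 to 1.42, and these were the only 2 genes of the set above 1.2 in all 4 pairs, as were 0.372% of all genes. Hsp90aa1 (1.12 to 1.41), Dnaja1 (1.18 to 1.35), Dnajb1 (1.15 to 1.27) and Hsp90ab1 (1.07 to 1.34) were also higher in mouse 2 throughout. Each mouse is 1 animal with its own hashtags, so that mouse, hashtag and preparation cannot be told apart. Leaving 1 sample out of the IL-4eGFP- fit between nodes leaves 1 mouse alone in a node. A shift of Hspa8 and Hsph1 toward the node with more of mouse 2 then follows from these same values. Such fits therefore add no support to the pattern.

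**Figure D5:**
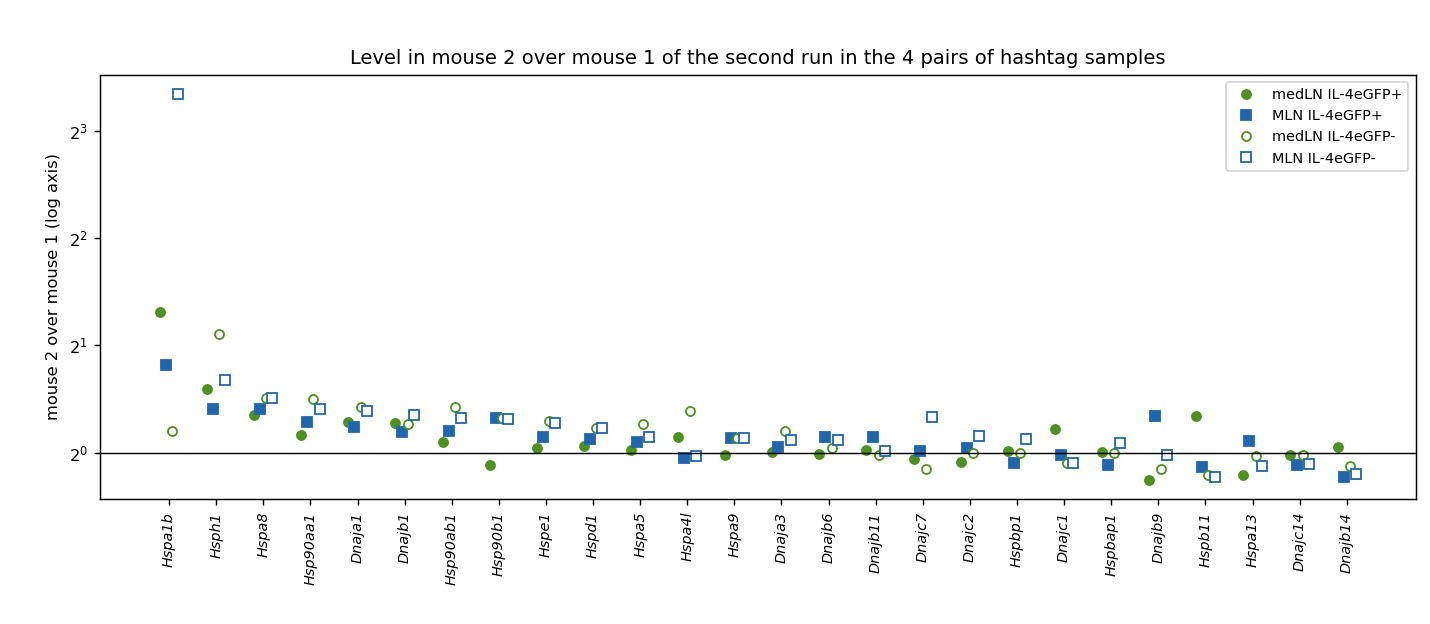
Ratio of the level in mouse 2 to that in mouse 1 of the second run (y axis, log scale) for named chaperone genes (x axis, ordered by their mean ratio) in medLN (green circles) and MLN (blue squares), filled for IL-4eGFP+ and open for IL-4eGFP- samples. Hsph1 and Hspa8 lie above 1.2 in all 4 pairs, while Hspa1b rests on few UMIs and scatters from 1.15 to 10.1.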

How the data were processed

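Single-cell 5′ RNA libraries of CD4+ T cells from lung and MLN, and of hashtag-labelled cells from medLN and MLN, were analysed. The deposited values are counts of UMIs per gene (or hashtag) and cell barcode, not normalized, which the authors made with Cell Ranger (versions 2.1.1, 3.0.1 and 6.1.2 per the labels) on barcodes called cells, and both sequencing runs of a first-run library were combined by the authors. The labels list mm10 and GRCm38.

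The filters were those of the methods of the study: more than 500 UMIs and 500 genes per cell, mitochondrial UMIs below 7%, novelty above 0.8 and, in the first run, productive TCR alpha and beta contigs. Second-run cells needed 1 hashtag by HTODemux (Seurat 5.3.0). This kept 1082 of 1689 barcodes of lung 1, 416 of 656 of lung 2, 2462 of 3013 of MLN 1 and 754 of 961 of MLN 2. Doublets were left out as an alternative only, by extra TCR chains in the first run. The aggregated second-run table carries both gates, which were told apart by the number at the end of a barcode, and 0 columns were left unused.

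UMIs were summed per library, hashtag sample or class of cells, since cells are not replicates, and TCR genes were left out. Sums were tested with edgeR 4.0.16 under R 4.3.3 (glmQLFit and glmQLFTest, filterByExpr, TMM, Benjamini-Hochberg over all genes tested), with organ as a covariate between gates and the sample as a block between cycling and other cells. SE was the log2 fold change divided by the root of F. The tests were tested on simulated data. p-values measure the spread between 2 mice per group, and for the gates 4 samples of 2 mice. For cycling against other cells they measure the spread of the differences within 4 samples, again of 2 mice in each run. Organs or nodes of 1 mouse were taken as separate samples in these fits. In the second run the hashtags name the mouse. In the first run samples with the same number were taken to come from the same mouse, which their titles do not state. On this basis the numbers pair the samples. Their deviations from the group means correlated by 0.0374 between lung and MLN, 0.239 and 0.127 between nodes in the IL-4eGFP+ and IL-4eGFP- gates and 0.151 and 0.173 between gates in medLN and MLN. Alternatives were DESeq2 1.42.0, other scalings, no filter on low counts, the replicate block, other choices of cells, thinned cells and each sample left out. Intervals of shares were computed with scipy 1.17.1.

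The members and lists were chosen with earlier results of these data known. Named genes were a fixed set of 16 and, in each comparison, up to 10 genes each way with the largest change among those called with a mean of at least 10, and other lists were named up to 4 each way. Some genes outside this rule are said to have been chosen after their values were seen, or are given as parts of a count. Others carry values without such a mark, among them Dnajb2, Dnajc15 and Dnajc19 in cycling cells of the first run, Dnajc3 between gates and Hsf1. Some genes within the rule, such as Dnajc11 in cycling cells of the second run, are not described. Promoter sequences are those of RefSeq on GRCm38.p6 and gene positions those of GENCODE.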

Additional observations from a re-analysis of the deposited data

Results flagged for a closer look

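In 104 groups of 4 samples searched for a sample far from the other 3, 3 were found. The 4 samples of a group come from 2 mice and the genes share samples, so that no rate by chance is set beside this count. Hspbap1 was at 24.9 CPM in MLN 2 of the IL-4eGFP- gate, with 23.2 to 23.4 in the other 3 samples. Dnajc5, a J protein of secretory vesicles, was at 68.2 in cycling IL-4eGFP+ cells of medLN 2, with 52.0 to 54.6 in the other 3, and Dnaja4 was at 17.3 in the other IL-4eGFP+ cells of medLN 2, with 13.6 to 14.1 in the rest. The difference of Dnajc3 between cycling and other cells was not the same in lung and MLN, with a log2 difference of 0.84 ± 0.18 (SE, edgeR interaction test, adjusted p = 0.0175). In lung cycling cells were higher in 2 of 2 libraries and in MLN lower in 2 of 2. This test was added after the data were seen and was not repeated in other settings.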

How the results depend on the processing

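Each sample could be left out with the spread pooled over those that remained, and a lone sample was then assumed to vary like the other groups. The counts of called genes between lung and MLN and between gates stayed within 1.5 times of 15 and 37. They were 13 to 18 and 25 to 38 over the settings that kept all samples. Of all genes, 17.3% to 36.7% and 40.7% to 65.0% were called over these settings. With a sample left out the count was 33 to 35 between gates (55% to 59.3%), where 58.1% to 60.5% of all genes were called. Between organs such fits leave 1 library in an organ, and their counts are not given. The mouse or hashtag sample as a replicate block gave 18 between organs (31.0%, where 36.7% of all genes were called). Between gates it gave 38 (63.3%, where 63.6% of all genes were called). It gave 0 in both node contrasts and their interaction, and changed the sign of no call. Cycling and other cells without the block gave 11 in place of 26 in the first run and 42 in place of 44 in the second. These are 20.4% and 75% of the chaperone genes, where 23.0% and 68.5% of all genes were called. In the first run DESeq2 gave 16 (29.6%, where 29.9% of all genes were called), thinned cells 3 and thinning after classing 9. Leaving out a library gave 15 to 24 there, with 15 without MLN 1 (27.3%, where 32.3% of all genes were called). In the second run thinned cells gave 15 and thinning after classing 21. Between nodes, 0 became 1 for IL-4eGFP+ cells without cells that carried other markers (1.69%, where 2.29% of all genes were called). With samples left out it became 0 to 1 for IL-4eGFP+ cells and 1 to 6 for IL-4eGFP- cells. In the latter it was 1 without medLN 1 (Hsph1, 0.41) and 1 without MLN 2 (Hspa8, 0.21). These are 1.72% and 1.75%, where 1.76% and 1.26% of all genes were called. It was 6 without medLN 2 (Hsph1, -0.69, and Hspa8, -0.35, among them) and 5 without MLN 1. These are 10.2% and 8.47%, where 0.893% and 1.60% of all genes were called. Each fit with a sample left out leaves 1 sample in a node and sets 1 mouse against 2. No conclusion is drawn from its shares.

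Directions turned between gates with library totals for Hspe1 (0.00303), Dnajb6 (0.17, adjusted p = 0.0039), Hspbp1 (0.0108), Dnajc14 (0.0158) and Hspa9 (0.0388), without cycling cells for Hspd1 (-0.25) and Hsp90ab1 (-0.0465), and with thinned cells for Hspd1 (-0.10) and Hsp90ab1 (-0.0308). In cycling cells they turned with thinning for Hsp90ab1 (-0.0533) and Hspa9 (-0.25) in the first run and, in the second, for Dnajc1 (0.0467), Hspa5 (-0.0421), Dnaja1 (-0.16) and Dnajc4 (0.0716), with library totals for Dnaja1 (-0.00315) and with thinning after classing for Dnaja1 (-0.10) and Dnajc4 (0.0892). The cause was not tested. Depth limits what can be said of genes with few UMIs, such as Hspa1a in the second run.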
